A study of Homo sapiens with 4 samples.

Results

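The peaks described here are those of a PPARα list and a PML/RARA list whose summit lay at a chromosome end. The cells were NB4, a line from acute promyelocytic leukemia with the PML/RARA fusion. A peak was a member when its summit lay within 1 Mb inward of the first or last annotated RefSeq gene of chromosomes 1 to 22, or beyond that gene. By this rule 322 of 9829 PPARα peaks were members, set beside 9251 PPARα peaks in the rest of the 22 chromosomes. Of 46021 PML/RARA peaks, 2600 were members and 42485 lay in the rest. The series holds 4 CUT&Tag libraries of NB4 cells, in which an antibody holds a transposase at its target and the tagged DNA is sequenced: one with a PPARα antibody and one with a PML/RARA antibody, both labelled as treatment, and for each of them an IgG control library. What the treatment was, and which epitope the PML/RARA antibody binds, the sources used here do not give, so unfused PML and RARA proteins cannot be told apart from the fusion. Only the 2 peak lists were used here, 1 per antibody and without replicate, and no IgG peak list was used. Read depth is therefore unknown, and the fold of a peak is the authors' own enrichment value, which ranks peaks within a list and is not on a common scale between the lists.

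PPARα is a nuclear receptor that binds fatty acids and, as a dimer with RXR, direct repeats of the half-site AGGTCA at genes of lipid oxidation. PML/RARA joins the PML protein to the retinoic acid receptor RARα, which reads related half-sites, and it drives acute promyelocytic leukemia. Human chromosomes end in TTAGGG repeats, and the sequence next to them, the subtelomere, is a patchwork of segments present on several chromosomes, with copies of gene families such as WASH, DDX11L, FAM138 and olfactory receptors, and with GC-rich, gene-rich stretches behind them.

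Of the 44 windows, 39 stood at a telomeric end, 17 on the side of the first gene and 22 on the side of the last gene. The other 5 were the first-gene windows of the acrocentric chromosomes 13, 14, 15, 21 and 22, whose annotated genes start on the short arm or by the centromere and not at a telomere. These 5 windows held no PPARα peak and 15 PML/RARA peaks, from 0 to 8 per window. The 17 first-gene telomeric windows held 109 PPARα peaks, with a median of 6 and a range of 0 to 15, and 1034 PML/RARA peaks, with a median of 49 and a range of 1 to 161. The 22 last-gene windows held 213 PPARα peaks, with a median of 9 and a range of 2 to 19, and 1551 PML/RARA peaks, with a median of 71.5 and a range of 13 to 153. Near the limit of 1 Mb, the 3 PML/RARA summits just inside it, from 998724 to 999131 bases inward, had folds of 4.23, 3.90 and 2.74, and the 3 just outside it, from 1000068 to 1000901 bases, had folds of 6.09, 4.998 and 4.41. The 3 PPARα summits just inside, from 985509 to 995029 bases, had folds of 5.04, 5.14 and 3.39, and the 3 just outside, from 1012992 to 1024146 bases, had folds of 4.61, 10.3 and 6.22.

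The promoters of 6 genes show the kinds of sequence that the ends hold. All are windows of 250 bases before to 50 bases after the annotated start, from RefSeq on GRCh38.p14, written 5′ to 3′ on the gene's strand, with 3 motifs and their reverse complements in capitals: the nuclear receptor half-site AGGTCA, then GGGCGG for the general activator SP1, and the telomere unit TTAGGG. The FAM138A window on chromosome 1 is shown because it is repeated: the windows of the 5 FAM138 copies on 5 chromosome ends, a family of subtelomeric noncoding RNAs, were 1 sequence, identical over their whole length, and none of the 5 windows held a peak of either list. The OR4F5 window, for an olfactory receptor, is an example of the GC-poor sequence without peaks. The CFD window, for complement factor D, held a PML/RARA peak alone with a fold of 14.8. The SDHA window, for a subunit of succinate dehydrogenase, held a PML/RARA peak with a fold of 30.9, while its PPARα peak started downstream of the window. The ZNF84 and MZF1 windows, both for zinc finger proteins, held peaks of both lists. ZNF84 had a PPARα fold of 9.16 and a PML/RARA fold of 36.3, the highest PML/RARA fold at any protein-coding gene of the ends. MZF1, named for myeloid zinc finger, had a PPARα fold of 16.6, the highest of all PPARα members, and a PML/RARA fold of 11.3.
FAM138A, chr1:36032-36331, minus strand: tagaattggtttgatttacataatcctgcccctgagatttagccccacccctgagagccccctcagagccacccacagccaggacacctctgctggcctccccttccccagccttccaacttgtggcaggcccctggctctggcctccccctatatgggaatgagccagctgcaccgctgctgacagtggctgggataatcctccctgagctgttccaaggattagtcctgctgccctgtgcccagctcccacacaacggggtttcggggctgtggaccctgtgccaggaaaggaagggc
OR4F5, chr1:65169-65468, plus strand: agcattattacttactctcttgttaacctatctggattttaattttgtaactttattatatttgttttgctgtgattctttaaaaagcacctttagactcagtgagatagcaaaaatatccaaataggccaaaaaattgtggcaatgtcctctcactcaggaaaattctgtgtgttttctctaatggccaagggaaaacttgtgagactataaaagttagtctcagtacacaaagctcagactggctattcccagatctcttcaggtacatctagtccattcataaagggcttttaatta
CFD, chr19:859414-859713, plus strand: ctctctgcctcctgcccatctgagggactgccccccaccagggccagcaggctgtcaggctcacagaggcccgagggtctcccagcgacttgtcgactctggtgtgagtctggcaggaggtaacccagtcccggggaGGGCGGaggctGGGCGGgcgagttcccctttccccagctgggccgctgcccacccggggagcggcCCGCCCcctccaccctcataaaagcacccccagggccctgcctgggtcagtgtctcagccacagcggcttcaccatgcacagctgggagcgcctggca
SDHA, chr5:218070-218369, plus strand: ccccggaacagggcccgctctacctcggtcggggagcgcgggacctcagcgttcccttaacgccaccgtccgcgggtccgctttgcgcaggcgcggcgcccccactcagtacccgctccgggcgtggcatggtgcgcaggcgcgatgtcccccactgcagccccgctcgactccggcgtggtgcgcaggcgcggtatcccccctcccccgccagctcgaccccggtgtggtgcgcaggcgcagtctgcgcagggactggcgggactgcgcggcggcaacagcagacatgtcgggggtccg
ZNF84, chr12:133037259-133037558, plus strand: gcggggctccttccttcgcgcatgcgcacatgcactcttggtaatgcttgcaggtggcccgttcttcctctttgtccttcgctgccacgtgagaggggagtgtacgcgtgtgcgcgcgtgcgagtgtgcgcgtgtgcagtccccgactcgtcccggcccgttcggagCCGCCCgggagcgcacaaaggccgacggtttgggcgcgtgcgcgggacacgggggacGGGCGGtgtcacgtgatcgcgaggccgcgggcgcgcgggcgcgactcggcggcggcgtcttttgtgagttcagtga
MZF1, chr19:58573524-58573823, minus strand: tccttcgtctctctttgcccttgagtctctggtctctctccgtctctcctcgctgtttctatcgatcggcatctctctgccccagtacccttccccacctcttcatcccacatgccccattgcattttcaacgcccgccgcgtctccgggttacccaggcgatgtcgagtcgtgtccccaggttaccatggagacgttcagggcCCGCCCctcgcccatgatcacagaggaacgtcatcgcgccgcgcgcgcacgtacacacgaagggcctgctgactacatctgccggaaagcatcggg

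The GC content of these windows was 60.3% at FAM138A, 34.3% at OR4F5, 69.7% at CFD, 74.7% at SDHA, 69.3% at ZNF84 and 60.7% at MZF1. They held 3, 0, 13, 41, 46 and 27 CpG dinucleotides in the same order. GGGCGG occurred 3 times at CFD, 2 times at ZNF84 and 1 time at MZF1. No AGGTCA or TTAGGG stood in any of the 6 windows. A match or its absence describes the letters of the window and not a bound site.

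Both lists were denser at chromosome ends than inside, PML/RARA more so than PPARα, and protein-coding genes were denser there too. Within the 44 Mb of the windows there were 7.21 PPARα peaks per Mb, against 3.48 per Mb over 2652 Mb of the rest, a ratio of 2.07 with a 95% interval of 1.85 to 2.32. PML/RARA reached 58.2 peaks per Mb at the ends, against 16.0 per Mb in the rest, a ratio of 3.64 (3.49 to 3.78). These exact intervals cover counting error over peaks only, and neighbouring peaks are not independent. Protein-coding genes numbered 16.2 per Mb at the ends and 6.89 per Mb in the rest, a ratio of 2.35. Per protein-coding gene there were 0.445 PPARα peaks at the ends and 0.505 in the rest, a ratio of 0.880, so the higher PPARα density turned below 1 on this scale. PML/RARA kept its direction, with 3.59 peaks per gene at the ends and 2.33 in the rest, a ratio of 1.54.

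The densities were also compared end by end. Of the 39 telomeric ends, 30 had more PPARα peaks per Mb than the rest of their own chromosome and 20 of them had over 2 times as many, with a median ratio of 2.02 and a highest ratio of 6.36. For PML/RARA, 33 of the 39 ends lay above their own chromosome and 28 had over 2 times its density, with a median ratio of 3.82 and a highest ratio of 14.4.

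**Figure D1:**
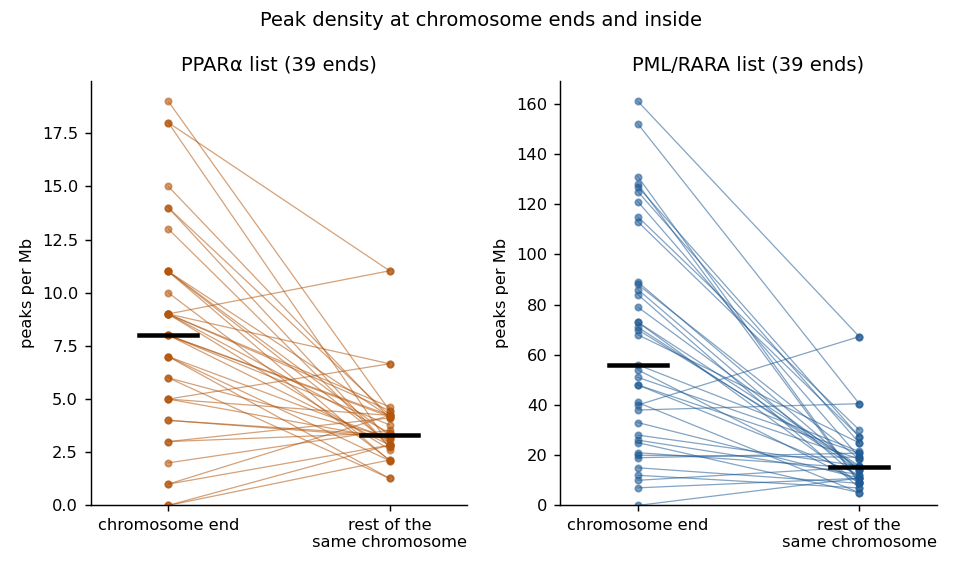
Peaks per Mb within 1 Mb of the terminal gene at each of the 39 telomeric ends (left) and in the rest of the same chromosome (right), in the lists of PPARα and of PML/RARA, with 1 line per end; the black bars are medians over ends. Most lines descend from left to right, 30 of 39 for PPARα and 33 of 39 for PML/RARA.

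Setting windows against stretches of equal gene number gave the same contrast between the lists. The windows were placed in 6 classes of protein-coding gene number and compared with 1 Mb bins of the rest in the same class. For PML/RARA the windows held more peaks in every one of the 6 classes, for example 11.5 at ends against 5.08 in the rest with 1 to 4 genes and 95.9 at ends against 77.1 in the rest with 30 or more. A gene was counted here where its midpoint lay. The class without a coding gene held 4 windows with a mean of 6.25 PML/RARA peaks, against 0.767 in the rest, and the last-gene end of chromosome 14 alone held 21 of these peaks. For PPARα the windows were higher in 5 classes, for example 8.31 at ends against 6.52 in the rest with 10 to 19 genes, and lower in the class of 30 or more genes, with 10.6 at ends against 13.7 in the rest. Weighted by the classes of the ends, the ratio was 1.08 for PPARα and 1.67 for PML/RARA.

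**Figure D2:**
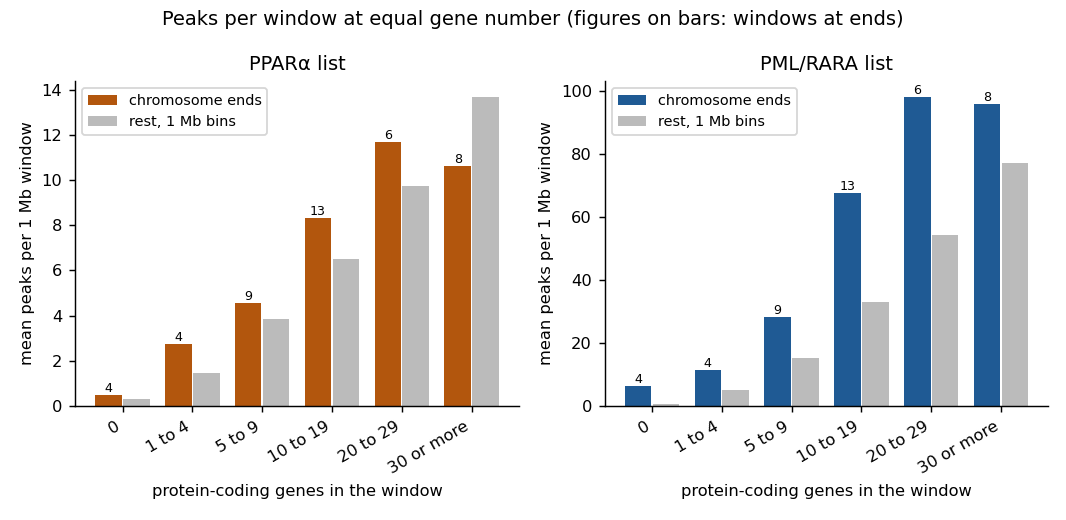
Mean peaks per 1 Mb window at chromosome ends (coloured) and in 1 Mb bins of the rest (grey), by the number of protein-coding genes in the window, for PPARα (left) and PML/RARA (right); the figures on the bars count the windows at ends. PML/RARA bars at ends are the taller of each pair, while the PPARα bars differ less in most classes and change order in the class of 30 or more genes.

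Going inward from the 39 telomeric ends, PML/RARA density was high over the first 2 Mb and lower farther in. It was 48.7 per Mb in the first 0.1 Mb, reached 74.6 per Mb between 0.5 and 0.6 Mb, was 63.7 per Mb between 1 and 2 Mb, and fell to 39.7 per Mb between 2 and 3 Mb and to 22.6 per Mb between 9 and 10 Mb. The limit of 1 Mb therefore cuts through a broader zone. PPARα density was highest between 0.2 and 0.3 Mb, at 13.1 per Mb, where protein-coding genes were densest as well at 22.1 per Mb. It was 6.79 per Mb between 1 and 2 Mb and 4.59 per Mb between 9 and 10 Mb. The share of PML/RARA peaks that overlapped a PPARα peak was 21.6% in the first 0.1 Mb, 11.4% between 1 and 2 Mb and 20.3% between 9 and 10 Mb.

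**Figure D3:**
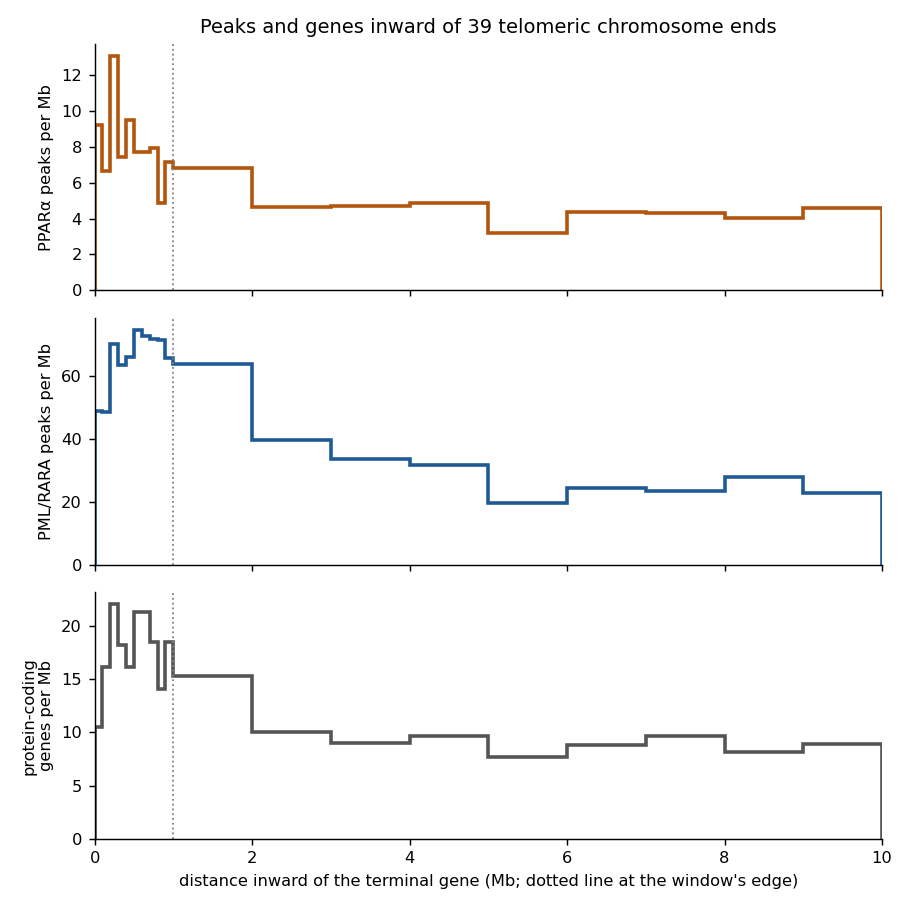
PPARα peaks, PML/RARA peaks and protein-coding genes per Mb (top to bottom) by distance inward of the terminal gene, pooled over the 39 telomeric ends, in steps of 0.1 Mb up to 1 Mb and of 1 Mb beyond. All 3 are higher within 2 Mb of the terminal gene, and PML/RARA density is 63.7 per Mb at 1 to 2 Mb against 22.6 per Mb at 9 to 10 Mb.

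Nearly all PPARα peaks overlapped PML/RARA at the ends and elsewhere, while a smaller share of PML/RARA peaks was joined by PPARα at the ends than in the rest. Of 322 PPARα members, 291 overlapped a PML/RARA peak by 1 base or more, 90.4% (86.6 to 93.4), against 90.0% in the rest, an odds ratio of 1.04 (0.712 to 1.57), so no difference was detectable under this rule. Some other rules gave higher odds, with intervals above 1, of 1.55 (1.12 to 2.21) for windows of 2 Mb, 1.67 (1.26 to 2.24) when 50% of the PPARα peak had to be covered and 1.87 (1.47 to 2.40) when as many PML/RARA peaks were kept, by −log10 q, as the PPARα list holds. With summits within 200 bases of each other they were 0.857 (0.682 to 1.08). Among PPARα peaks with a fold of at least 5 the odds ratio was 3.89 (1.30 to 19.1), with 217 of 220 members overlapping a PML/RARA peak of that fold. Of 2600 PML/RARA members, 330 overlapped a PPARα peak, 12.7% (11.4 to 14.03), against 21.8% (21.4 to 22.2) in the rest, an odds ratio of 0.521 (0.462 to 0.587). The PML/RARA peaks that stood alone made up the larger part of the higher density. Alone they numbered 50.8 per Mb at the ends and 12.5 per Mb in the rest, a ratio of 4.06 (3.89 to 4.24). PML/RARA peaks shared with PPARα numbered 7.39 per Mb at the ends and 3.49 per Mb in the rest, a ratio of 2.12 (1.89 to 2.37). PPARα peaks that overlapped PML/RARA and PPARα peaks that stood alone had ratios of 2.07 and 2.06.

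The PML/RARA peaks of the ends had a lower median fold and lay less often near a gene end. Their median fold was 5.77 at the ends and 7.51 in the rest, and their median −log10 q was 9.51 at the ends and 12.0 in the rest. Among those shared with PPARα the median fold was 14.7 at the ends and 14.6 in the rest, and among those alone it was 5.41 at the ends and 6.43 in the rest. The shared peaks went the other way by −log10 q, with a median of 80.6 at the ends and 47.4 in the rest, and were wider, with a median of 613.5 bases at the ends and 513 bases in the rest. Of the 1000 PML/RARA peaks of highest −log10 q on chromosomes 1 to 22 the ends held 100, 10%, against 64, 6.4%, of the 1000 of highest fold. The ends held 5.77% of all PML/RARA peaks of these chromosomes, so the count by fold is near that share. Summits within 1 kb of the start or finish of a protein-coding gene made up 21.9% (20.3 to 23.5) of PML/RARA members and 27.1% (26.6 to 27.5) of the rest, and summits deeper inside protein-coding genes 48.4% of members and 41.9% of the rest. Compared within 4 classes of fold and by location, the share that overlapped PPARα was lower at the ends in all 8 strata, with an odds ratio over them of 0.634 (0.555 to 0.725), but in 4 of the 8 the share of the rest lay within the interval of the members. In the third class of fold away from gene ends, for example, it was 12.3% (9.05 to 16.1) at the ends and 14.5% (13.7 to 15.3) in the rest. The widest gap in percentage points was in the class of highest fold near gene ends, where 106 of 210 PML/RARA members overlapped PPARα, 50.5% (43.5 to 57.4), against 70.3% (69.0 to 71.5) in the rest. PPARα members had a median fold of 5.95, against 6.27 in the rest, and 45.7% (40.1 to 51.3) of their summits lay near a gene end, against 53.4% in the rest.

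Counted by gene instead of by Mb, the share of coding genes at the ends was below that of the rest for PPARα and above it for PML/RARA, but neither difference held under every rule. There were 713 protein-coding genes reaching into the windows, and a gene carried a peak when one overlapped the 1 kb on each side of its start or finish. PPARα peaks stood at 201 of them, 28.2% (24.9 to 31.7), against 33.3% in the rest, where the share over all protein-coding genes of the 22 chromosomes was 33.1%. The odds ratio was 0.787 (0.663 to 0.931), but 0.980 (0.772 to 1.24) for windows of 0.5 Mb and 0.995 (0.850 to 1.16) when a peak could lie within 5 kb of a gene end. Without chromosome 16 it was 0.843 (0.705 to 1.004). PML/RARA peaks stood at 489 of the 713 genes, 68.6% (65.0 to 72.0), against 58.8% in the rest and 59.2% over all protein-coding genes, an odds ratio of 1.53 (1.30 to 1.80), or 1.15 (0.994 to 1.33) when annotation rows with scaffold coordinates stayed in. Of the 489, 200 also carried PPARα, 40.9%, against 55.9% in the rest. The single gene with PPARα and no PML/RARA peak was ZNF141 on chromosome 4, named after its values were seen. None of the 10 coding genes in the acrocentric windows carried a peak of either list.

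The outermost peaks were among the strongest of the PML/RARA list. At the telomeric ends 39 PML/RARA summits lay beyond the terminal gene, at 27 of the 39 ends, with a median fold of 24.8 and a range of 3.46 to 68.2. A fold of 20 or more was found in 22 of these 39, 56.4%, against 14.6% of the 41 summits in the first 20 kb inward, 5.91% of those from 20 kb to 1 Mb inward and 7.91% in the rest. At 10 first-gene ends a PML/RARA peak started within 1 kb of base 10000 of the chromosome, with folds from 16.0 to 68.2. The highest was at chr10:10221-10436 with a fold of 68.2, and others were at chr4:10002-10253 with 55.04, chr7:10001-10241 with 47.3 and chr18:10001-10618 with 44.6. At chromosome 5 the outermost peak was at chr5:11450-11803, with a fold of 55.9.

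At 10 of the 22 last-gene ends the terminal gene was a copy of RPL23AP, a family of ribosomal protein pseudogenes, and at 8 of these a PML/RARA summit lay beyond it, between 6432 and 8960 bases away. The outermost peaks of these 8 ends had folds of 19.8 to 57.5. The peak beyond RPL23AP88 was at chr2:242183347-242183528 with a fold of 57.5. The one beyond RPL23AP60 was at chr10:133787065-133787422 with 52.2, the one beyond RPL23AP79 at chr19:58607326-58607615 with 47.9, the one beyond RPL23AP4 at chr21:46699841-46699983 with 47.5 and the one beyond RPL23AP87 at chr17:83247146-83247392 with 46.1. The other 3 were lower, with 37.5 beyond RPL23AP82 at chr22:50807892-50808458, 26.3 beyond RPL23AP25 at chr1:248945554-248946374 and 19.8 beyond RPL23AP84 at chr4:190203319-190203811. Of the 20 PML/RARA peaks of highest fold on chromosomes 1 to 22, 10 were at chromosome ends. Of these 10, 8 lay beyond the terminal gene. The ends held 5.77% of all PML/RARA peaks of these chromosomes. The other 10 of the 20 lay nearest to 4 snRNA genes of one array on chromosome 17, a 5S rRNA gene, 2 genes of the 45S rRNA unit, SNAR-A1, a small noncoding RNA gene, and 2 pseudogenes, MTCYBP13 and STAG3L3. Repeats such as these are present in many copies, and the sources used here do not say how reads that match several copies were placed.

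Over all 44 windows, 5 of 322 PPARα members had their summit beyond the terminal gene, against 40 of 2600 PML/RARA members. The lower PPARα number thus went with the shorter list, and the shares were alike. As 90.4% of all PPARα members did, each of the 5 overlapped a PML/RARA peak. Their folds were 12.9 at chr1:10027-10467, 11.8 at chr1:248945692-248946223, 7.48 at chr3:10290-10682, 4.41 at chr16:10597-10950 and 4.23 at chr15:101980496-101980845. The overlapping PML/RARA peaks had folds of 33.4 and 26.3 at the first and last end of chromosome 1, 24.8 at chromosome 3, 16.0 at chromosome 16 and 35.8 at chromosome 15. None of the 50 PPARα peaks of highest fold was at a chromosome end, although 4 of the 20 of highest −log10 q were. The ends held 3.36% of all ranked PPARα peaks, so a count of 0 among 50 does not show a lack of strong peaks there. Of the 100 PPARα peaks of highest fold the ends held 4. Of the 1000 of highest fold they held 35, 3.5%, and of the 1000 of highest −log10 q 39, 3.9%. Without a genome sequence the letters under these outermost peaks were not read.

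**Figure D4:**
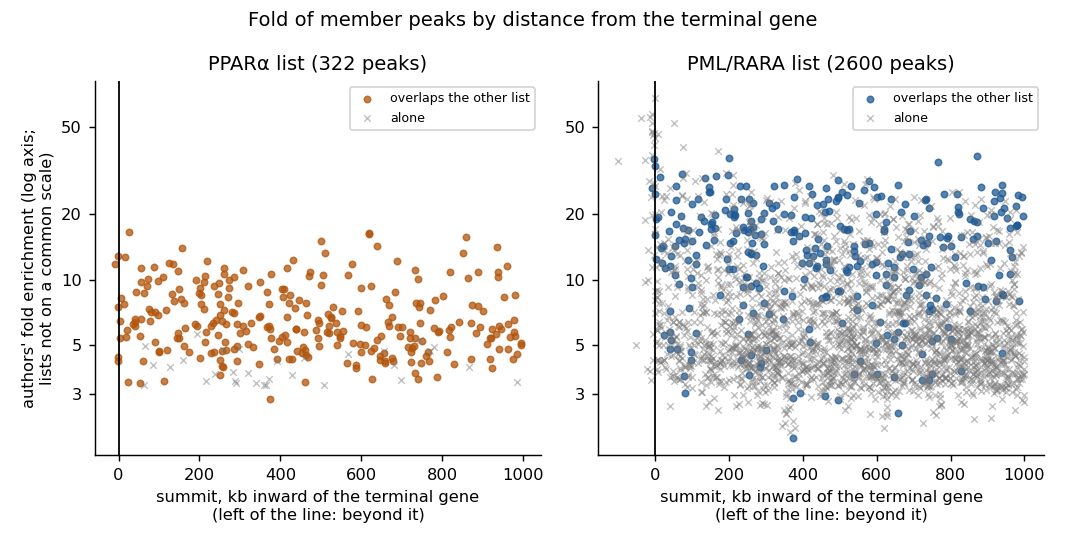
The authors' fold of every member peak (log axis) against the distance of its summit inward of the terminal gene in kb, for the 322 PPARα peaks (left) and the 2600 PML/RARA peaks (right); filled points overlap the other list, crosses stand alone, and the vertical line marks the terminal gene. PML/RARA summits beyond the line reach a fold of 68.2, with a median of 24.8, while the PPARα summits beyond it stay between 4.23 and 12.9.

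The strongest PPARα members by −log10 q lay at repeats, at a zinc finger gene and at a promoter shared by a gene pair. The first was at chr18:107198-108965, within 1 kb of ROCK1P1, a partial pseudogene copy of the kinase gene ROCK1, where the fold was 6.86 and the −log10 q 157, rank 2 in the whole list. A second peak there, inside ROCK1P1 at chr18:109730-110966, had a fold of 4.70, with a −log10 q at 75.3. Both were covered by pieces of PML/RARA signal, 2 PML/RARA peaks under each, with folds from 4.26 to 10.2. The peak over MZF1 at chr19:58572837-58573660 had a −log10 q of 141.5. The peak at the TMEM18 promoter at chr2:676602-677560, beside the divergent transcript TMEM18-DT, had a PPARα fold of 14.3 and a PML/RARA fold of 23.6. TMEM18 encodes a protein of the nuclear envelope.

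The remaining strong PPARα members stood at the loci of the D4Z4-type arrays of DUX4, a double homeobox transcription factor of the early embryo that is silent in most adult cells. In the DUX4 gene itself, at chr4:190179254-190179975, the PPARα fold was 12.7 with a −log10 q of 94.2 and the PML/RARA fold was 13.97. On chromosome 10 the peak at chr10:133689680-133690414 lay between DUX4 copies and in none of them, 4731 bases from DUX4L20. The PPARα fold there was 11.4 with a −log10 q of 86.2 and the PML/RARA fold was 12.3. Each of these had a weaker PPARα neighbour within 3 kb, with folds of 5.44 on chromosome 4 and 7.14 on chromosome 10. Both loci thus held a stronger and a weaker PPARα peak close together, but they were not alike beyond that. The chromosome 4 locus held further PPARα peaks, the strongest at chr4:190122594-190123032, between DUX4 copies. The PPARα fold there was 10.1 and the overlapping PML/RARA peak had a fold of 30.5. No further PPARα peak lay at the chromosome 10 locus. Whether reads of one array were placed in the other was not tested. Of 30 DUX4 copies in the windows, 3 carried PPARα and 3 PML/RARA, all on chromosome 4.

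PML/RARA members of highest −log10 q gathered on the first-gene side of chromosome 5. They were at LOC124900931, a noncoding RNA gene, at chr5:963499-964360 with a fold of 25.1 (−log10 q 939), at the outermost peak with 851, and in the body of AHRR, the repressor of the aryl hydrocarbon receptor, at chr5:392175-392875 with a fold of 19.9 and 795 and at chr5:399486-400209 with a fold of 16.9 and 773. PRDM7, a histone methyltransferase gene related to the recombination factor PRDM9, had a peak at chr16:90077255-90077765 with a fold of 26.6 (−log10 q 606), and PPARα there had a fold of 5.38. The first-gene window of chromosome 5 held 135 PML/RARA and 14 PPARα peaks.

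Of the 31 PPARα members without PML/RARA overlap the folds were low, with a median of 3.98 and a highest value of 5.64. The highest 6 by −log10 q stood at SDHA, at the tRNA gene TRP-TGG3-1, at FAM110A, near ZNF268, in the chromatin regulator gene ANKRD11 and at SOX12, a developmental transcription factor gene, with folds from 3.70 to 5.64. Their −log10 q values were 3.30 to 5.003. The PML/RARA members that stood alone with the highest −log10 q, 426 to 851, were the outermost peaks of the first-gene side of chromosomes 5, 10 and 18 and the last-gene side of chromosome 10, a peak 5 kb from PALM on chromosome 19 and a peak in LOC105375113 on chromosome 7.

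Copies of the subtelomeric families carried peaks less often than the other annotated genes at the ends. Over 18 families 142 copies lay in 30 windows, while the other genes came from all 44. Longer genes offer a longer stretch to this count, and gene length was not matched. PPARα peaks were found over or within 1 kb of 7 of them, 4.93% (2.01 to 9.89), against 21.3% (19.4 to 23.2) of 1783 other annotated genes at the ends, with 18.8% of all annotated genes of the 22 chromosomes carrying one. PML/RARA peaks were found at 34 copies, 23.9% (17.2 to 31.8), against 53.6% (51.3 to 55.9) of the other genes at the ends and 36.5% of all annotated genes. A peak near neighbouring copies counted for each of them, as at DDX11L8 and WASH8P. Of 159 copies of the same families in the rest, 4 carried PPARα, 2.52%, and 11 carried PML/RARA, 6.92%.

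The families differed among themselves. WASH copies, which encode or resemble a subunit of an actin-nucleating complex on endosomes, carried PML/RARA at 6 of 7, with folds up to 12.3 at WASH3P on chromosome 15, and PPARα at none. DDX11L copies, pseudogenes of a DNA helicase that are the outermost genes of several chromosomes, had PML/RARA over them or within 1 kb at 4 of 6, with folds of 5.15 to 17.2, and PPARα at 1, DDX11L10, with 4.41. The peak of fold 17.2 at DDX11L5 and the peaks of both lists at DDX11L10 lay outside the copies. Their summits, 581 bases from DDX11L5 and 495 (PML/RARA) and 764 (PPARα) bases from DDX11L10, are among those counted above as beyond the terminal gene. None of 17 OR4F olfactory receptor copies and none of 10 WBP1LP copies carried a peak of either list. RPL23AP copies carried PML/RARA at 3 of 16 and PPARα at 1, RPL23AP82 on chromosome 22, with a fold of 8.81. CICP pseudogenes carried PML/RARA at 2 of 11 and SEPTIN14P copies at 1 of 12, with PPARα at none of the CICP copies and 1 of the SEPTIN14P copies. FAM138E on chromosome 15 was the single one of 5 FAM138 copies with a PML/RARA peak nearby, with a fold of 13.6, although the promoter windows of the 5 had the same letters. In smaller families PML/RARA was at 2 of 3 FRG1 genes, FRG1 and its neighbour FRG1-DT, and not at FRG1FP. The peak with a fold of 18.4 was the same for FRG1 and FRG1-DT. SCGB1C1 had a fold of 24.2 and SCGB1C2 no peak. RABL2B and FAM41C, the single copies of their families at ends, had folds of 20.4 and 16.6. PML/RARA was at 2 of 5 TUBB8 copies and 2 of 5 IL9R copies, with folds of 4.28 to 13.7 and of 5.35 to 7.05, and none of the 3 FRG2 copies carried a peak of either list.

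MicroRNA genes are among these families. MIR6859 has 4 copies in the windows, 2 on chromosome 1 and 1 each on chromosomes 15 and 16. The sequence around the copies was not compared. All 4 give the same mature sequences, printed here from RefSeq because the copies share them, with the seed, bases 2 to 8, in capitals.
hsa-miR-6859-5p: gAGAGGAAcaugggcucaggaca
hsa-miR-6859-3p: uGACCCCCaugucgccucuguag
MIR6859-1 on chromosome 1 had a PML/RARA fold of 5.89 and MIR6859-3 on chromosome 15 one of 4.28, while the other 2 copies had no peak and no copy had PPARα. MIR1302 copies, which sit beside the WASH genes, carried PML/RARA at 3 of 4 and PPARα at none. A separate count took the 42 hairpins in the windows for which mature sequences were at hand. It did not include the MIR1302 copies and did not cover every chromosome. Of these 42, 18 carried PML/RARA and 2, MIR3124 on chromosome 1 and MIR4638 on chromosome 5, carried PPARα together with PML/RARA. Among the other annotated genes of the windows 53.6% carried PML/RARA and 21.3% PPARα, so nothing particular to the hairpins was read from these counts.

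Zinc finger genes were the family with the most PPARα peaks. Of 55 protein-coding ZNF genes at the ends, 23 carried PPARα, 41.8% (28.7 to 55.9), against 27.1% (23.7 to 30.6) of the 658 other coding genes at the ends and 35.8% of ZNF genes in the rest. PML/RARA stood at 38 of the 55, 69.1% (55.2 to 80.9), against 68.5% of the other coding genes at the ends. Of these genes 28 formed the cluster on the last-gene side of chromosome 19, where 9 carried PPARα and 14 PML/RARA. At the last-gene side of chromosome 12, 4 of 7 carried PPARα and 7 of 7 PML/RARA. ZNF140 there had a PPARα fold of 13.97 and a PML/RARA fold of 15.2, and on chromosome 19 the PPARα and PML/RARA folds were 12.2 and 16.4 at ZNF837, 11.96 and 19.4 at ZNF446, and 9.39 and 27.1 at ZNF8. ZNF891 and ZNF10 on chromosome 12, which share a divergent promoter, had a PML/RARA fold of 28.3 and no PPARα peak.

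The 2 ends of chromosome 19 were unlike in both lists. The last-gene end had 43 coding genes, 18 PPARα peaks and 41 PML/RARA peaks, of which 20, 48.8%, overlapped PPARα. The first-gene end had 37 coding genes, 9 PPARα peaks and 161 PML/RARA peaks, of which 10, 6.21%, overlapped PPARα. Other ends with a high share of PML/RARA peaks joined by PPARα were the last-gene end of chromosome 1, with 9 of 20, 45%, and the first-gene end of chromosome 18, with 11 of 26, 42.3%. Low shares were found at the first-gene ends of chromosome 1, with 2 of 52, 3.85%, and of chromosome 7, with 5 of 90, 5.56%, and at the last-gene ends of chromosome 9, with 4 of 73, 5.48%, and of chromosome 17, with 10 of 153, 6.54%.

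PML/RARA peaks were most numerous at the first-gene end of chromosome 19 with 161, the last-gene end of chromosome 17 with 153, the first-gene end of chromosome 5 with 135, and the last-gene ends of chromosomes 13 and 16 with 130 and 127. PPARα peaks were most numerous at the last-gene ends of chromosomes 16, 2 and 19 with 19, 18 and 18, followed by the first-gene end of chromosome 11 with 15. The first-gene end of chromosome 5 and the last-gene end of chromosome 12 had 14 each. The first-gene end of chromosome 3, with 1 coding gene, had 1 peak of each list, and the first-gene end of chromosome 8 had 15 PML/RARA peaks and no PPARα peak.

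**Figure D5:**
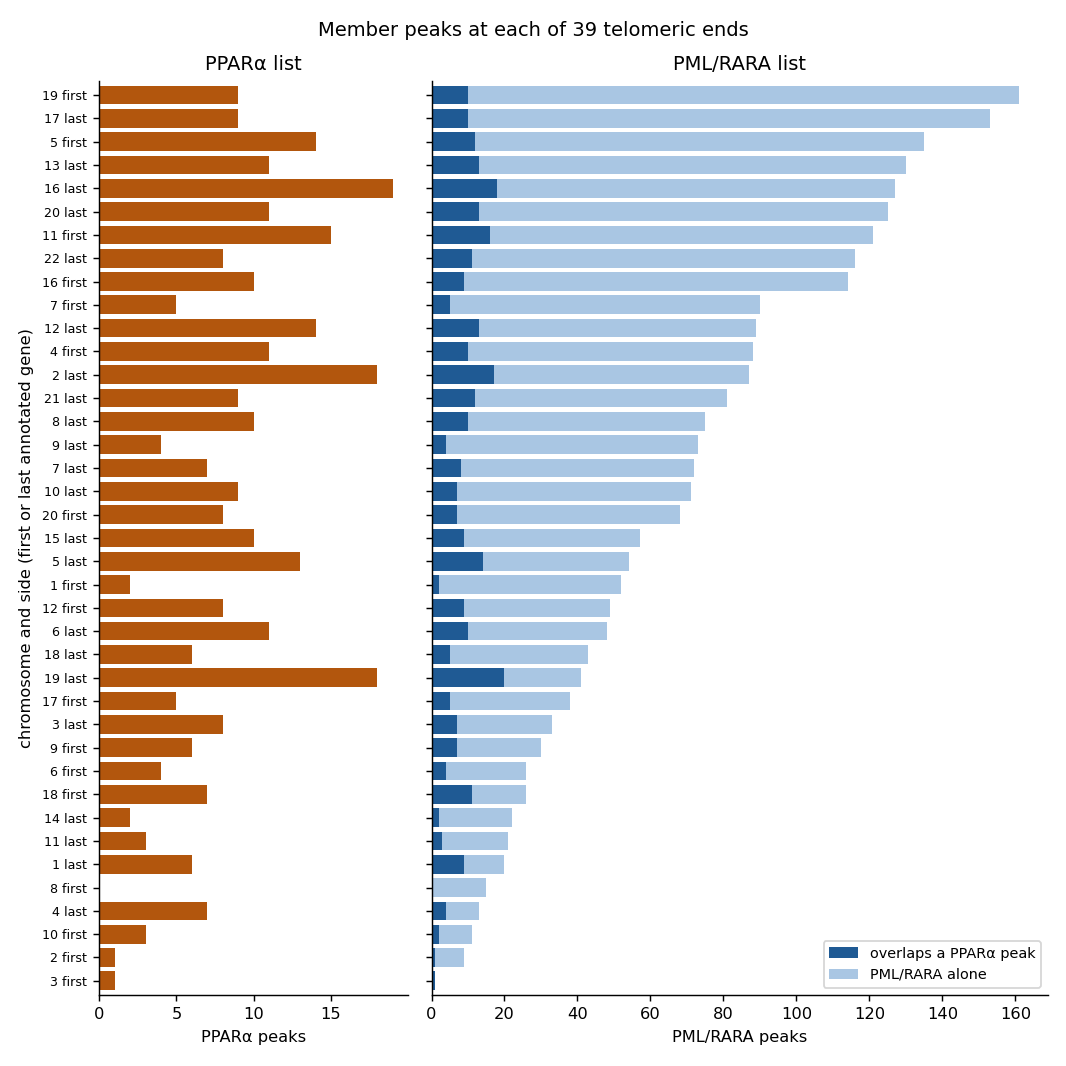
Number of PPARα peaks (left) and of PML/RARA peaks (right; dark where a PPARα peak overlaps, light where alone) at each of the 39 telomeric ends, sorted by the PML/RARA number. PML/RARA ranges from 1 to 161 per end, and its overlapping part stays at 20 or fewer.

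Across the ends, both counts followed the number of coding genes, with a Spearman correlation over 39 ends of 0.677 for PPARα and 0.707 for PML/RARA. The median GC content of the promoters of an end, available for 37 ends, went with the PML/RARA count at 0.815, with the PPARα count at 0.427, and with the share of PML/RARA peaks joined by PPARα at −0.678. All points come from the same 2 libraries and GC content, gene number and position move together along chromosomes, so these 6 correlations, of which the one between the 2 counts was 0.688, are a description.

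Promoters at the ends were richer in GC than elsewhere, yet in no class of GC content did they carry peaks more often beyond counting error. Over 1092 promoters at ends the median GC content was 66.0%, against 58.3% for 32466 in the rest, and the median number of CpG was 22 at ends and 13 in the rest. GGGCGG was found on either strand in 57.1% of promoters at ends and 44.6% in the rest, AGGTCA in 12.1% at ends and 13.9% in the rest, and TTAGGG in 6.41% at ends and 9.20% in the rest. PPARα peaks covered part of 19.3% of the promoters at ends and 21.04% in the rest, and PML/RARA of 43.4% at ends and 37.2% in the rest. Among promoters of 60 to 70% GC, PPARα was at 24.3% (19.9 to 29.2) at ends and 37.1% (36.1 to 38.1) in the rest, and PML/RARA at 43.1% (37.8 to 48.5) at ends and 58.2% (57.2 to 59.3) in the rest. At 70% GC and over, PML/RARA was at 67.1% at ends and 66.2% in the rest, and PPARα at 26.5% at ends and 30.5% in the rest. Among promoters with a PML/RARA peak, those at ends had PPARα in 44.3% and those in the rest in 55.01%.

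Genes of myeloid granules, interferon response, lipid metabolism and globins were read against the shares of all 713 coding genes at the ends, which were 28.2% (PPARα) and 68.6% (PML/RARA), and lists this short cannot stand apart from them. At the first-gene end of chromosome 19 lies the cluster of neutrophil granule genes. AZU1, which encodes azurocidin, had a PML/RARA fold of 11.5, the proteinase 3 gene PRTN3 one of 5.22 and CFD one of 14.8, while the elastase gene ELANE between them had none, and none of the 4 carried PPARα. Of 7 genes listed for interferon response, all at ends, PML/RARA was at 5. The list also held DUSP22, a phosphatase gene and so not an interferon gene by function, which is 1 of the 5. IFITM2, IFITM1 and IFITM3, which encode antiviral membrane proteins, had folds of 23.2, 11.7 and 4.77. IRF7, a transcription factor that induces interferons, had a PML/RARA fold of 12.8 and a PPARα fold of 5.001, the single PPARα peak at a gene end of the list. DUSP22 had a PML/RARA fold of 10.7 at its gene ends and a PPARα peak of fold 5.56 inside the gene. IFITM5 and IRF4 had no peak at their gene ends in either list, with a PML/RARA peak of fold 5.71 inside IRF4.

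Of 9 genes listed for lipid metabolism 6 lay at ends, 5 of them with PML/RARA and 2 with PPARα. DGAT1, the enzyme of the last step of triglyceride synthesis, had a PML/RARA fold of 16.7, PNPLA2, the lipase that starts triglyceride breakdown, one of 9.88 and DECR2, a peroxisomal enzyme of fatty acid oxidation, one of 15.9, all 3 without PPARα. CHKB, a choline kinase of phospholipid synthesis, had a PPARα fold of 5.78 and a PML/RARA fold of 19.7. SLC25A22, a mitochondrial carrier of glutamate and so not a lipid enzyme, had a PPARα fold of 4.68 and a PML/RARA fold of 5.27. CPT1B, the muscle form of the carnitine transferase for fatty acid import into mitochondria, had no peak at its gene ends and a PML/RARA peak of fold 3.31 inside the gene. RTEL1, a helicase that maintains telomeres and the single gene of a telomere list of 6 to lie at an end, had a PPARα fold of 7.69 and a PML/RARA fold of 6.30.

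Of the 5 globin genes at the first-gene end of chromosome 16, HBQ1, which encodes theta globin, had a PML/RARA fold of 10.3 and the other 4, HBZ, HBM, HBA2 and HBA1, had none, nor did any have PPARα. The same HBZ, HBA1 and HBA2 were the listed markers of other cells that lay at ends, so 0 of these 3 carried a peak. Of the 5 markers of other cells in the rest, PML/RARA was at 1, the T cell gene CD3E, with a fold of 19.4. The granule gene MPO, a marker of promyelocytes, lies in the rest and had a PML/RARA fold of 9.26 and a PPARα fold of 3.99. The number of copies of each chromosome end in NB4 cells was not measured, and its part in the counts was not tested.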

How the data were processed

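The deposited files are narrowPeak lists, 1 per antibody. Per the submitters' processing notes the genome build was hg38 and the tools were Bowtie2 2.2.9, SAMtools, MACS 1.4.2 and bedtools; their roles and settings are not given in the sources used here, nor is whether IgG served as control. The authors' fold is a linear ratio over background, and the authors' q-value is on the −log10 scale; both served only to describe and rank peaks within a list. The depth behind the deposited score and fold is unknown.

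The summit was the peak start plus the deposited offset. Gene positions were RefSeq's on GRCh38.p14; 676 rows with scaffold coordinates were left out, leaving 56080 genes. Densities used summits within 1 Mb inward; the rest excluded stretches over 1 Mb without a gene. Promoters, microRNAs and GC contents come from RefSeq tables for the chromosomes other than 8. Shares carry exact Clopper-Pearson intervals and odds ratios exact intervals, all at 95% and for counting error only. With 1 list per antibody no p-value was computed. The members, families, gene lists and the rule for named peaks (the 6 of highest −log10 q, with and without overlap, the 6 outermost, the ends with most and fewest peaks, all family and list members at ends) were chosen with earlier results of these data known; some genes the rule selects are not reported here. The procedures were tested on simulated data. Alternatives were other windows, gene-end distances, overlap rules and stricter or shortened lists. Python 3.11.15, pandas 2.3.3, NumPy 2.4.6 and SciPy 1.17.1 were used.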

Additional observations from a re-analysis of the deposited data

How the results depend on the processing

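No paired analysis was possible because each antibody has 1 peak list and the results come from no test. Of 98 values recomputed under other settings, 71 stayed within the interval or range of the reported value, 26 moved and 1 turned round. The PPARα density ratio of 2.07 was 2.32 with windows of 0.5 Mb, 2.34 without the acrocentric windows, 1.08 within classes of gene number and, turned round, 0.880 per coding gene. The PML/RARA ratio of 3.64 was 3.24 with windows of 0.5 Mb, 3.85 from the terminal coding gene, 4.08 without the acrocentric windows, 3.30 at −log10 q of at least 5, 2.98 at fold of at least 5, 1.67 within gene classes and 1.54 per coding gene; it stayed above 1 under each, and leaving out each chromosome in turn gave 3.43 to 3.81. The overlap odds of PPARα, 1.04, were 6.12 and 3.89 at those q and fold limits, where 1 and 3 PPARα members stood alone, 1.55 with windows of 2 Mb, 1.87 with PML/RARA shortened to the length of the PPARα list and 1.67 with 50% of a PPARα peak covered. The overlap odds of PML/RARA were 0.653 with 0.5 Mb and below 1 under all 10 alternatives. The odds of PPARα at coding genes, 0.787, were 0.980 with 0.5 Mb and 0.995 with 5 kb around gene ends. Those of PML/RARA, 1.53, were 2.08 with 5 kb and 1.15, with an interval of 0.994 to 1.33, when rows with scaffold coordinates stayed in, an alternative chosen after seeing the data, as was leaving out chromosomes. Family copies with PPARα fell to 2 of 142 at either limit, against 7, and those with PML/RARA to 9, against 34, with the shortened list. Listed genes with PPARα numbered 1 of 14 with 0.5 Mb and 1 of 23 at the q limit, against 4 of 23, and with PML/RARA 7 of 14 with 0.5 Mb and 9 of 23 with the shortened list, against 15 of 23. Where no construction shows the cause, the cause was not tested. Depth, read placement among repeated copies and the IgG background limit every value and could not be measured from peak lists.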
